A study of Mus musculus with 36 samples.

Results

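Microglia are the resident macrophages of the brain. The response of cultured mouse microglia to a necroptosis-inducing treatment, written T/S/Z, was measured by RNA sequencing after 4 h and compared with the vehicle DMSO. T/S/Z stands for TNF with a Smac mimetic and zVAD. The 4 libraries labelled Microglia T/S/Z and the 4 labelled Microglia DMSO were chosen by their treatment label, 8 of the 24 microglial libraries and of the 36 libraries in all. The cells came from pooled brains of C57BL/6 pups 2 to 4 days old, without any transgene or deletion in the labels. They grew in mixed glial cultures for 12 days and were taken out with beads against CD11b, so the population is cells carrying that surface protein after culture, not microglia fresh from brain. Further groups of 4 libraries from the same table were used where a difference in treatment was asked about, namely T/5z, TNF with the TAK1 inhibitor 5z-7, and T/S/Z/N, T/S/Z with Nec-1s, which inhibits the kinase activity of RIPK1. Levels in Nec-1s alone and in T/5z/N, T/5z with Nec-1s, are shown beside them. Astrocytes were taken from the cells that the CD11b beads left behind. Their 3 DMSO and 3 T/S/Z libraries were used for the direction and size of the change of a few genes. The labels give 4 h for every treatment, and the methods describe the inhibitors as typically added ahead of TNF. Genes with a log2 value of 1 or more in 4 or more of the 24 microglial libraries were tested, 10524 of the 15385 listed.

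TNF binds its receptor TNFR1 and assembles a complex of adaptors, ubiquitin ligases (among them the cIAP proteins) and kinases (TAK1 and the IKK complex) that switches on the transcription factor NF-kB and the MAP kinases. NF-kB induces cytokines, chemokines and survival proteins, and also its own inhibitors. A Smac mimetic leads to loss of the cIAP proteins, and zVAD blocks caspases. With caspase-8 blocked, RIPK1 can join RIPK3 and MLKL in a complex, the necrosome, that ruptures the membrane, a form of death called necroptosis. Microglia produce TNF themselves and are a main source of interleukin-1 and chemokines in brain.

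Levels are given as deposited, on the scale log2(FPKM + 1), where FPKM is the number of fragments per kilobase of exon, scaled to sequencing depth. Differences are T/S/Z minus DMSO on that log2 scale, taken within replicate number, with the standard error (SE) from limma. A gene was called higher or lower when the fold change exceeded 1.5 and the Benjamini-Hochberg adjusted p, over all 10524 genes, was under 0.05. Values of 4 libraries are listed in the order of replicates 1 to 4. The gene lists were written with earlier results of these data known, so their shares beside those of all genes are descriptions, not tests. Each gene's mean over the 6 treatments was the same in all 4 replicates, to within 6.67e-05, which the study's methods do not describe, and negative values occurred in replicates 1 to 3. An effective depth of replicate 4, estimated from steps between its low normalized values, was 20.9 M in DMSO and 20.99 M in T/S/Z. The steps carry the normalization, so this is no count of sequenced reads. Depth is unknown for the other replicates. On the first principal component of the 24 libraries, which carried 65.0% of the variance, T/S/Z libraries lay between 33.7 and 39.1 and DMSO libraries between -43.8 and -37.2.

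The defining markers of microglia were present in both groups. Csf1r, the receptor for the main survival factor of microglia, had a level of 9.86 ± 0.036 (SD, n = 4) in DMSO and 9.81 ± 0.064 in T/S/Z, and Aif1, which encodes the macrophage protein Iba1, had 7.45 ± 0.052 and 7.49 ± 0.082. Tmem119, P2ry12 and Sall1, which mark microglia in the intact brain, were much lower, at 3.32, 2.39 and 1.56 in DMSO. Of 12 microglia markers 11 were tested, 2 were called higher (Spi1 by 0.78, Ptprc by 0.75) and 0 lower. Of all tested genes 12.2% were higher and 17.5% lower. After quantile normalization neither rise passed (0.31 and 0.39), while Cx3cr1 (-0.92) and Fcrls (-0.70) were called lower. P2ry12 was called lower without replicate 1 (-0.68) or 2 (-0.59). The summed FPKM of the 12 markers ranged from 2960 to 3240 in DMSO and from 3050 to 3350 in T/S/Z. Bulk RNA cannot tell fewer cells of a type from less RNA per cell.

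Markers of astrocytes and the mitochondrially encoded transcripts moved with the treatment. Of all tested genes 12.2% were called higher and 17.5% lower, which is the background of the counts in this paragraph. Of 12 astrocyte markers 8 were tested, and 5 were called higher, at low levels. They included Aqp4, the water channel, with 0.64 ± 0.2 in DMSO and 1.66 ± 0.19 in T/S/Z, and Gfap, the intermediate filament protein, with 1.71 ± 0.13 and 2.67 ± 0.29. Glul, the glutamine synthetase gene, fell by 0.86 and made up most of the summed marker level. Without it, the sum over the other 11 markers ranged from 9.78 to 11.8 FPKM in DMSO and from 17.2 to 26.6 in T/S/Z, against 95.4 to 226 for Glul alone over both groups. No astrocyte marker was at 0 in replicate 4 of both groups, and with 5 added before the log 0 of the 8 were called higher (Aqp4 at 0.37 and Gfap at 0.51). Sums of the other marker lists were low outside the macrophage lineage. The oligodendrocyte lineage list summed to 56.4 to 59.3 FPKM in DMSO and 45.3 to 55.2 in T/S/Z, with 2 of 4 tested genes called higher and 1 lower. Endothelial markers summed to 7.87 to 9.9 FPKM in DMSO and 3.56 to 4.28 in T/S/Z (2 of 3 lower), and neuronal markers to 2.04 to 2.81 FPKM in DMSO and 3.38 to 7.84 in T/S/Z (1 of 2 higher). With 5 added before the log 0 genes of these 3 lists were called by limma. Markers of fibroblasts (6.42 to 11.2 FPKM over both groups) and of neutrophils and lymphocytes (0.156 to 17.0) had 0 calls by limma among 5 and 2 tested, with 4 and 0 at an unadjusted p under 0.05. Markers of border macrophages and monocytes summed to 904 to 1060, with 1 of 5 higher and 1 lower. Of these 5, 0 were higher without replicate 3, without replicate 4 or after quantile normalization. The count lower was 2 without replicate 2 and after quantile normalization. All 11 tested mitochondrially encoded genes were called higher, by 0.76 to 1.39, and their share of the summed FPKM was 0.559%, 0.622%, 0.671% and 1.1% in DMSO and 1.23%, 1.13%, 1.2% and 1.45% in T/S/Z. The groups did not overlap in that share, although replicate 4 of DMSO came close to the lowest T/S/Z library. The part of these movements in the results below was not tested.

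**Figure D1:**
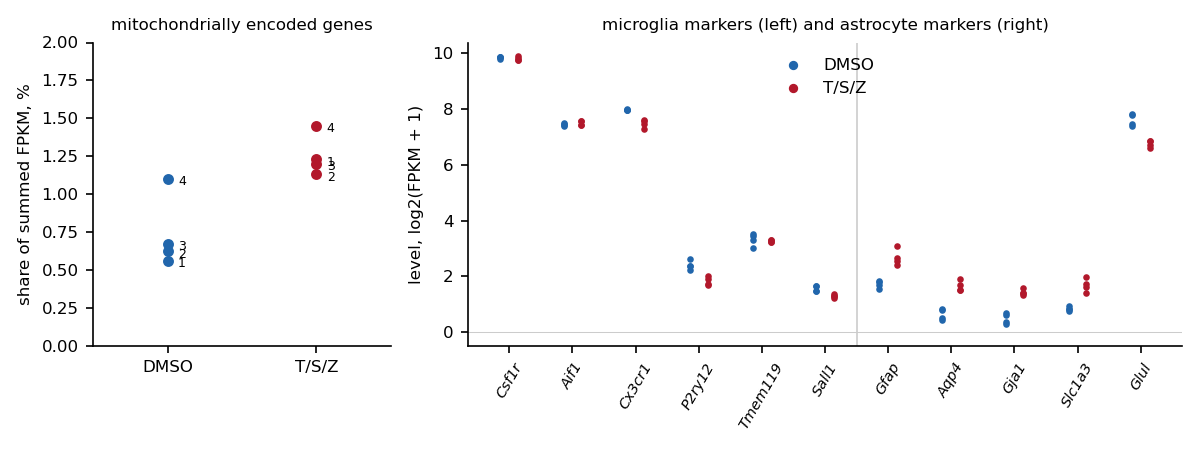
Left, share of the summed FPKM taken by mitochondrially encoded genes in each library, in percent, with replicate numbers beside the points. Right, levels (log2(FPKM + 1)) of 6 microglia markers and 5 astrocyte markers, with 1 point per library, DMSO in blue and T/S/Z in red. The mitochondrial share was 0.559% to 1.1% in DMSO and 1.13% to 1.45% in T/S/Z, and 4 of the 5 astrocyte markers shown were higher in T/S/Z while Glul was lower.

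T/S/Z moved a large part of the transcriptome, and the largest changes were rises. Of the 10524 genes tested, 3118 were called (29.6%), 1280 higher (12.2%) and 1838 lower (17.5%). Rises of more than 3 on the log2 scale were seen in 74 genes and falls of that size in 6. The DMSO and T/S/Z libraries did not overlap in 3100 of the 3118 called genes, against 69.5% of all tested genes. The median change over all genes was -0.085. Genes that were higher made up 41.1% of the calls, whereas they made up 52.7% after median centring of the libraries and 54.1% when 5 in place of 1 was added before taking logs. The balance between rises and falls thus changed with the scaling. Of the called genes, 628 rose and 574 fell by more than 1 on the log2 scale.

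**Figure D2:**
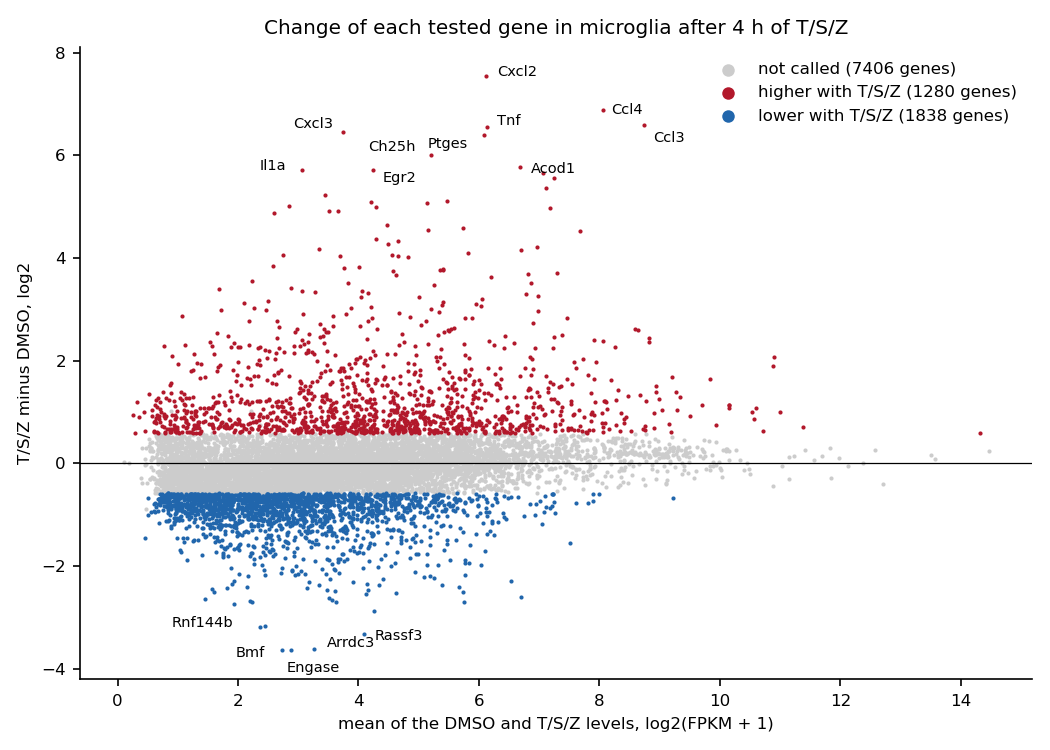
Change of each of the 10524 tested genes (T/S/Z minus DMSO, log2, vertical axis) against the mean of its DMSO and T/S/Z levels (log2(FPKM + 1), horizontal axis). Called genes are red (1280 higher) or blue (1838 lower), and the rises reach 7.55 while the falls stop at -3.64.

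The 15 largest rises were those of Cxcl2, Ccl4, Ccl3, Tnf, Cxcl3, Ptges, Ch25h, Acod1, Egr2, Il1a, Gpr84, Clec4e, Ifi205, Ccl2 and Il1rn, from 7.55 down to 5.10. Chemokines lead this list. Cxcl2 (ENSMUSG00000058427, GRCm38 chromosome 5, 90903871 to 90905938), a chemokine that attracts neutrophils, had levels of 2.08, 2.77, 2.41 and 2.12 in the DMSO libraries and 9.26, 9.28, 10.22 and 10.83 in the T/S/Z libraries. All T/S/Z values lay far above all DMSO values, although the T/S/Z libraries differed from each other by more than 1. The difference was 7.55 (SE 0.3, limma adjusted p 6.24e-07). Ccl4 (chromosome 11, 83662584 to 83664683) and its neighbour Ccl3 (chromosome 11, 83647844 to 83649355) attract monocytes and T cells. Ccl4 had 4.60, 4.59, 4.65 and 4.65 in DMSO and 11.86, 11.61, 10.99 and 11.55 in T/S/Z, a rise of 6.88 (SE 0.13, limma adjusted p 4.74e-08). Ccl3 had 5.39, 5.58, 5.50 and 5.34 in DMSO and 12.24, 12.16, 11.71 and 12.07 in T/S/Z, a rise of 6.59 (SE 0.096, limma adjusted p 1.61e-08). Both chemokines were clearly detected in DMSO already, and neither group of libraries came near the other.

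The mRNA of Tnf itself (chromosome 17, 35199381 to 35202007), the cytokine that was part of the treatment as a protein, had levels of 2.69, 2.80, 3.21 and 2.70 in DMSO and 9.68, 9.43, 9.06 and 9.46 in T/S/Z. It rose by 6.56 (SE 0.16, limma adjusted p 1.07e-07). Il1a, an interleukin-1 released from injured cells, lay near 0 in DMSO, with -0.30, 0.22, 0.55 and 0.34, and had 5.75, 5.79, 5.69 and 6.41 in T/S/Z. Its rise was 5.71 (SE 0.15, limma adjusted p 1.34e-07), and 3.62 with 5 added before the log. Il1rn, the antagonist of the interleukin-1 receptor, rose with it, from 2.92 ± 0.15 to 8.03 ± 0.62. On the deposited scale the rise of the agonist and that of its antagonist were 5.71 and 5.10. Their order is not settled, as the size for Il1a, near 0 in DMSO, depends on the constant added.

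Enzymes that make small signalling molecules stood beside the cytokines. Ptges, the terminal synthase of prostaglandin E2, had 2.97, 3.07, 3.01 and 2.48 in DMSO and 9.09, 9.20, 9.33 and 9.48 in T/S/Z, a rise of 6.39 (SE 0.14, limma adjusted p 6.02e-08). Ch25h, which makes 25-hydroxycholesterol, rose by 6.01 (SE 0.14). Acod1, which makes itaconate, had 3.63, 3.81, 4.13 and 3.60 in DMSO and 9.46, 9.70, 9.54 and 9.59 in T/S/Z and rose by 5.78 (SE 0.091). These enzymes, Gpr84, a receptor for medium-chain fatty acids (5.66), and Clec4e, the C-type lectin receptor Mincle (5.56), varied little between the T/S/Z libraries, with SDs of 0.17 for Ptges, 0.099 for Acod1 and 0.13 for Clec4e against 0.77 for Cxcl2 and 0.78 for Ccl2. Ifi205 rose by 5.36 but belongs to a family of near-identical genes, so its value is uncertain. Ch25h, Il1a, Gpr84 and Ccl2 carry a mark in the deposited annotation, confounded, which it does not define and which was read as overlap with another gene. Reads of a neighbour may be part of their values. The libraries were not stated to keep strand, so antisense reads cannot be told apart.

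**Figure D3:**
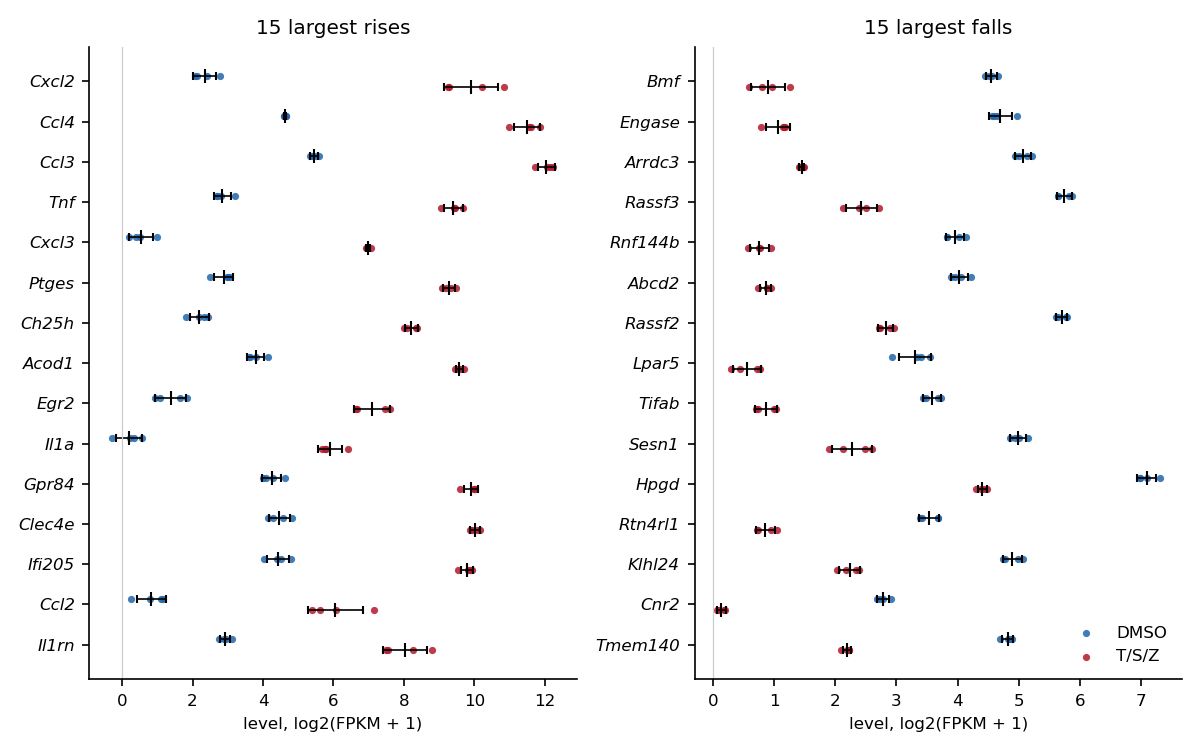
Levels (log2(FPKM + 1)) of the 15 genes with the largest rises (left) and the 15 with the largest falls (right), with 1 point per library, DMSO in blue and T/S/Z in red. Black ticks and bars give the mean and the SD of 4 libraries. The groups are separate for every gene shown, and in T/S/Z the spread is widest for Cxcl2, Ccl2 and Il1rn.

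Promoter sequences were examined for genes that moved together. The 300 bases from 250 before to 50 after the start of the gene (RefSeq, GRCm38.p6) were matched by symbol to 8183 of the tested genes, taking the start nearest to the deposited gene start. The kappa B consensus, the sequence bound by NF-kB, was searched on both strands, and 5.32% of the 8183 promoters held it. Among the 15 largest rises, 13 had a promoter in the table, and 2 of these, Cxcl2 and Cxcl3, held a match. They are shown with the matched bases in capitals, where overlapping matches on both strands join into a single run.
Cxcl2 (chr5:90903649-90903948, plus strand): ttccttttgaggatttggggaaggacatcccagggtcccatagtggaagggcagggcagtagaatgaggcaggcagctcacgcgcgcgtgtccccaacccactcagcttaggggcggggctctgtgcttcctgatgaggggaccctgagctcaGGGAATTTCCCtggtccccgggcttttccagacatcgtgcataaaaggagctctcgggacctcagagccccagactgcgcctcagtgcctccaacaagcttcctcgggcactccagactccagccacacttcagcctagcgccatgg
Cxcl3 (chr5:90785851-90786150, plus strand): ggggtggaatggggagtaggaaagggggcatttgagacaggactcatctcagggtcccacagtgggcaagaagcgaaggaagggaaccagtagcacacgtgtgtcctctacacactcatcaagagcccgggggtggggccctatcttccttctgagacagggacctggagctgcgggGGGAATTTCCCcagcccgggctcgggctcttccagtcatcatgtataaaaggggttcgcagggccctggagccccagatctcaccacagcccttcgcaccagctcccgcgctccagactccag
The capitals spell the same run in both promoters, beginning 97 bases before the start in Cxcl2 and 73 bases before it in Cxcl3. Of the promoters of genes called higher by more than 3, 12 of 55 held a match (21.8%), of all genes called higher 9.05% and of all called lower 4.13%. For the sequence TGANTCA, bound by AP-1, the shares were 20%, 7.18% and 3.99%, against 4.59% of all. Il1a and Il1rn held an AP-1 match, 12 and 141 bases before the start. Ch25h held the cyclic AMP response sequence TGACGTCA at 61 bases before the start (3.48% of all promoters) and Egr2 a serum response sequence at 72 bases before it (1.23% of all). These matches are descriptions of short windows and were not tested as binding sites.

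Most genes of secreted signals were called higher. Of the CC chemokines, 8 of 12 tested were called higher and 0 lower, with a median change of 2.43, and of the CXC and CX3C chemokines 7 of 9 were higher and 0 lower, with a median of 1.22. Ccl7, a monocyte attractant, rose from 0.16 ± 0.57 to 5.05 ± 0.86, and Cxcl1, a neutrophil attractant, from 0.34 ± 0.29 to 5.36 ± 0.87. Both started near 0, and with 5 added before the log their rises were 2.83 and 3.11 in place of 4.89 and 5.02. Cxcl10, an attractant of T cells often induced by interferon, rose by 4.02 (SE 0.12). Of the cytokines and growth factors, 21 of 25 were higher and 0 lower, with a median of 1.79. Of all genes 12.2% were higher. With 5 added before the log the medians of these lists were 1.42, 0.74 and 0.67, and 15 cytokine genes were called higher. Tnfsf9, the ligand of 4-1BB, rose by 4.92 (SE 0.1). Their receptors were split, with 7 of 27 higher and 7 lower. Ccrl2, a chemerin-binding receptor, rose by 4.10, and Il6ra, the interleukin-6 receptor chain, fell by 2.26. Ccr1, which binds Ccl3, was called higher by 0.73, but without replicate 4, whose T/S/Z value was the highest, the difference was 0.46 and not called. It was not called with ordinary per-gene variance or with 5 added before the log (0.43) either.

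Nearly all genes of the NF-kB pathway's own feedback rose. Of 20 tested NF-kB subunits, inhibitors and feedback genes, 19 were called higher and 0 lower, with a median of 2.06, against 12.2% of all genes higher. Traf1, an adaptor of TNF receptors, had 1.70, 1.60, 1.75 and 1.61 in DMSO and 6.71, 6.89, 6.79 and 6.65 in T/S/Z, a rise of 5.10 (SE 0.067, limma adjusted p 9.29e-09). Tnfaip3 encodes A20, a ubiquitin-editing inhibitor of the pathway, and had 2.79, 2.91, 2.99 and 2.85 in DMSO and 7.42, 7.40, 7.42 and 7.49 in T/S/Z. It rose by 4.55 (SE 0.059, limma adjusted p 9.29e-09). Nfkbia, the inhibitor IkB-alpha, had 5.29, 5.47, 5.62 and 5.41 in DMSO and 9.22, 9.16, 9.04 and 9.20 in T/S/Z and rose by 3.71 (SE 0.08, limma adjusted p 6.26e-08). Traf1, Tnfaip3 and Nfkbia were each separate between the groups by several log2 units. Zc3h12c, an RNase of the regnase family, rose by 3.37. In the promoters of this list, the kappa B consensus was found in 8 of 17 (47.1%, against 5.32% of all promoters).

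Most components of the receptor complex itself were not called. Of 23 genes of the TNF receptor complex and its ubiquitin machinery, all tested, 6 were higher, 1 lower and 16 not called. The share called was 30.4% against 29.6% of all genes. By direction 26.1% were higher, against 12.2% of all genes, and 4.35% lower, against 17.5%. Those higher were Tnfaip3, its partner Tnip1 (2.63), Birc3, which encodes cIAP2 (1.64), the receptor TNFR2 gene Tnfrsf1b (1.39), Traf2 (0.67) and the IKK-alpha gene Chuk (0.59). Traf2 did not pass with 5 added before the log (0.55), and Chuk passed neither there nor without replicate 1 (0.58) or 4 (0.52). Tab1, a subunit of the TAK1 complex, fell by 1.06, and by 0.6 with 5 added before the log. The TNFR1 gene Tnfrsf1a had 6.31, 6.35, 6.40 and 6.47 in DMSO and 6.39, 6.47, 6.34 and 6.38 in T/S/Z, so the groups overlapped. Birc2, which encodes cIAP1, a protein that Smac mimetics deplete, had 3.28 ± 0.15 and 3.47 ± 0.12 (difference 0.18, not called). The other genes of the complex not called lay between -0.44 (Rbck1, also known as HOIL-1) and 0.55 (Tab2). After centring on the median Tab2 was called higher (0.65).

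The genes of the necrosome and the caspase-8 complex were called about as often as all genes (30.8% against 29.6%), with 2 of 13 higher, 2 lower and 9 not called. Cflar, which encodes c-FLIP, a partner and inhibitor of caspase-8, had 4.30, 4.28, 4.08 and 4.09 in DMSO and 6.71, 6.80, 6.84 and 6.80 in T/S/Z and rose by 2.60 (SE 0.07, limma adjusted p 1.34e-07). Ppm1b, a phosphatase that acts on RIPK3, rose by 0.66, and by 0.58, under the minimum, after quantile normalization. Casp9, an initiator caspase of apoptosis, fell by 1.04 (SE 0.071, limma adjusted p 8.92e-06). The necroptosis genes did not pass the fold-change minimum. Ripk3 had 2.02, 2.24, 2.21 and 2.29 in DMSO and 1.75, 1.85, 1.79 and 2.01 in T/S/Z (difference -0.34, SE 0.073, limma adjusted p 0.00371), and Mlkl had 3.16, 3.19, 3.19 and 3.05 and 2.80, 2.98, 2.96 and 2.83 (difference -0.26, SE 0.064, limma adjusted p 0.00749). Casp8 differed by -0.19, Fadd by 0.22 and the nucleic acid sensor Zbp1 by 0.16, none of them called.

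Anti-apoptotic genes of the BCL-2 family rose. All 7 tested anti-apoptotic members were higher, against 12.2% of all genes, with a range of 0.70 to 5.08. Mcl1, a short-lived survival protein, rose from 7.52 ± 0.11 to 8.71 ± 0.061, a difference of 1.19 that was 0.72 after quantile normalization. Bcl2a1a, Bcl2a1b and Bcl2a1d rose by 5.08, 1.68 and 3.70, but they are near-identical copies whose reads cannot be assigned with certainty. Of 9 pro-apoptotic members 1 was higher, Pmaip1, known as Noxa (1.01), 3 were lower (33.3%, against 17.5% of all genes) and 5 were not called. The lower ones were Bmf, the gene with the largest fall of all on the deposited scale, Bbc3, known as Puma (fell by 1.63), and Bcl2l11, known as Bim (fell by 0.84). Bmf, a BH3-only protein that binds survival members of the family, had 4.67, 4.45, 4.56 and 4.51 in DMSO and 0.97, 1.26, 0.80 and 0.60 in T/S/Z. It fell by 3.64 (SE 0.12, limma adjusted p 2.67e-07), and by 2.22 with 5 added before the log. With 5 added the fall of Engase was larger (-2.295). The lowest DMSO library lay more than 3 above the highest T/S/Z library.

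Most immediate early genes and most phosphatases that oppose MAP kinases were called higher, against 12.2% of all genes higher and 17.5% lower. Of 25 immediate early transcription factors 18 were higher and 2 lower, with a median of 1.85 (1.14 with 5 added before the log). Egr2, a zinc finger factor, had 1.84, 1.64, 1.08 and 0.94 in DMSO and 6.63, 6.68, 7.48 and 7.60 in T/S/Z, a rise of 5.72 (SE 0.3, limma adjusted p 2.4e-06). Maff, a small Maf protein, rose by 4.38, Ier3 by 3.67 and Bhlhe40, a repressor of the clock family, by 3.25. Fos, the best-known member, went the other way, from 6.47 ± 0.082 to 5.77 ± 0.15, a fall of 0.70 (SE 0.07, limma adjusted p 6.5e-05). Nr4a2 fell by 0.72, a call lost without replicate 2 (-0.48), with 5 added before the log (-0.28), after quantile normalization (-0.54) and with ordinary per-gene variance. Of 9 MAP kinase phosphatases 7 were higher and 1 lower. Dusp1, which acts in the nucleus on p38 and JNK, had 5.31, 5.44, 5.32 and 5.35 in DMSO and 8.28, 8.45, 8.46 and 9.24 in T/S/Z, a rise of 3.25 (SE 0.14, limma adjusted p 1.04e-06), and Dusp4 rose by 3.84. Dusp6, a cytosolic phosphatase of ERK, fell by 1.17 (SE 0.12, limma adjusted p 8.33e-05). Of 9 regulators of G protein signalling, 3 rose, with Rgs1 at 2.84, and 3 fell, with Rgs2 at -1.95.

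Receptors through which microglia sense microbes and injured cells went in both directions. Of all genes 12.2% were higher and 17.5% lower, which is the background of the counts that follow. Among the Toll-like receptors, co-receptors and adaptors 7 of 21 were higher and 5 lower. The surface receptors Tlr2 and Tlr1, which pair to sense lipoproteins, rose by 2.38 (SE 0.089, limma adjusted p 5.33e-07) and 2.36 (SE 0.13), and their co-receptor Cd14 rose by 1.89. The endosomal receptors of nucleic acids Tlr8 and Tlr9 fell. Tlr8 had 5.75, 5.70, 6.09 and 6.01 in DMSO and 3.47, 3.50, 3.31 and 3.16 in T/S/Z (fell by 2.53, SE 0.12, limma adjusted p 1.31e-06). Tlr9 had 4.63, 4.46, 4.46 and 4.59 in DMSO and 2.14, 2.16, 2.15 and 2.19 in T/S/Z (fell by 2.37, SE 0.064, limma adjusted p 1.34e-07). Of the C-type lectin, NOD and inflammasome genes 9 of 19 were higher and 2 lower. Nlrp3, the inflammasome sensor, rose from 3.45 ± 0.08 to 8.02 ± 0.082, and Clec5a rose by 3.79. Pycard, the adaptor that joins Nlrp3 to caspase-1, fell by 0.84, and by 0.56, under the minimum, with 5 added before the log. Costimulatory and adhesion molecules were higher in 13 of 18 and lower in 1. The adhesion molecule Icam1 rose by 4.22, the costimulatory receptor Cd40 by 4.05 and Cd83 by 2.50. The lower one was Cd200r1, the receptor for the neuronal restraint signal CD200 (fell by 1.90, SE 0.093, limma adjusted p 1.76e-06).

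More genes typical of resting microglia fell than rose. Of 31 homeostatic microglia genes 14 were lower, 2 higher and 15 not called, with a median of -0.51 (-0.30 with 5 added before the log), against 17.5% of all genes lower. Mertk, a receptor for the uptake of dying cells, had 5.03, 5.02, 5.08 and 5.16 in DMSO and 2.73, 2.79, 2.81 and 2.66 in T/S/Z, a fall of 2.32 (SE 0.066, limma adjusted p 1.74e-07). Tmem37 fell by 2.37 and Gpr34, a lysophospholipid receptor, by 1.51. The members that rose were Cd33, a sialic acid receptor (1.92), and Lpcat2, a lysophospholipid acyltransferase (0.89). Among 23 genes of disease-associated microglia 5 were higher and 1 lower (26.1% called, against 29.6% of all genes). By direction 21.7% were higher, against 12.2% of all genes, and 4.35% lower, against 17.5%. Without replicate 3, and likewise without replicate 4, 3 of them were called higher. Csf1, the ligand of Csf1r, rose by 1.79 and by 1.10 with 5 added before the log. The rises of Clec7a (0.86), Igf1 (0.66) and Spp1 (0.63) did not pass after quantile normalization (0.37, 0.24 and 0.064), and that of Spp1 did not pass without replicate 3 (0.58) or 4 (0.56). The list held 1 higher and 3 lower genes after quantile normalization. Of 13 complement genes only the C5a receptors were called, C5ar1 higher by 1.04 (not after quantile normalization, 0.55) and C5ar2 lower by 1.78 (a difference of -0.81 with 5 added before the log). That is 15.4% called against 29.6% of all genes, and after quantile normalization the complement list held 0 higher and 3 lower.

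**Figure D4:**
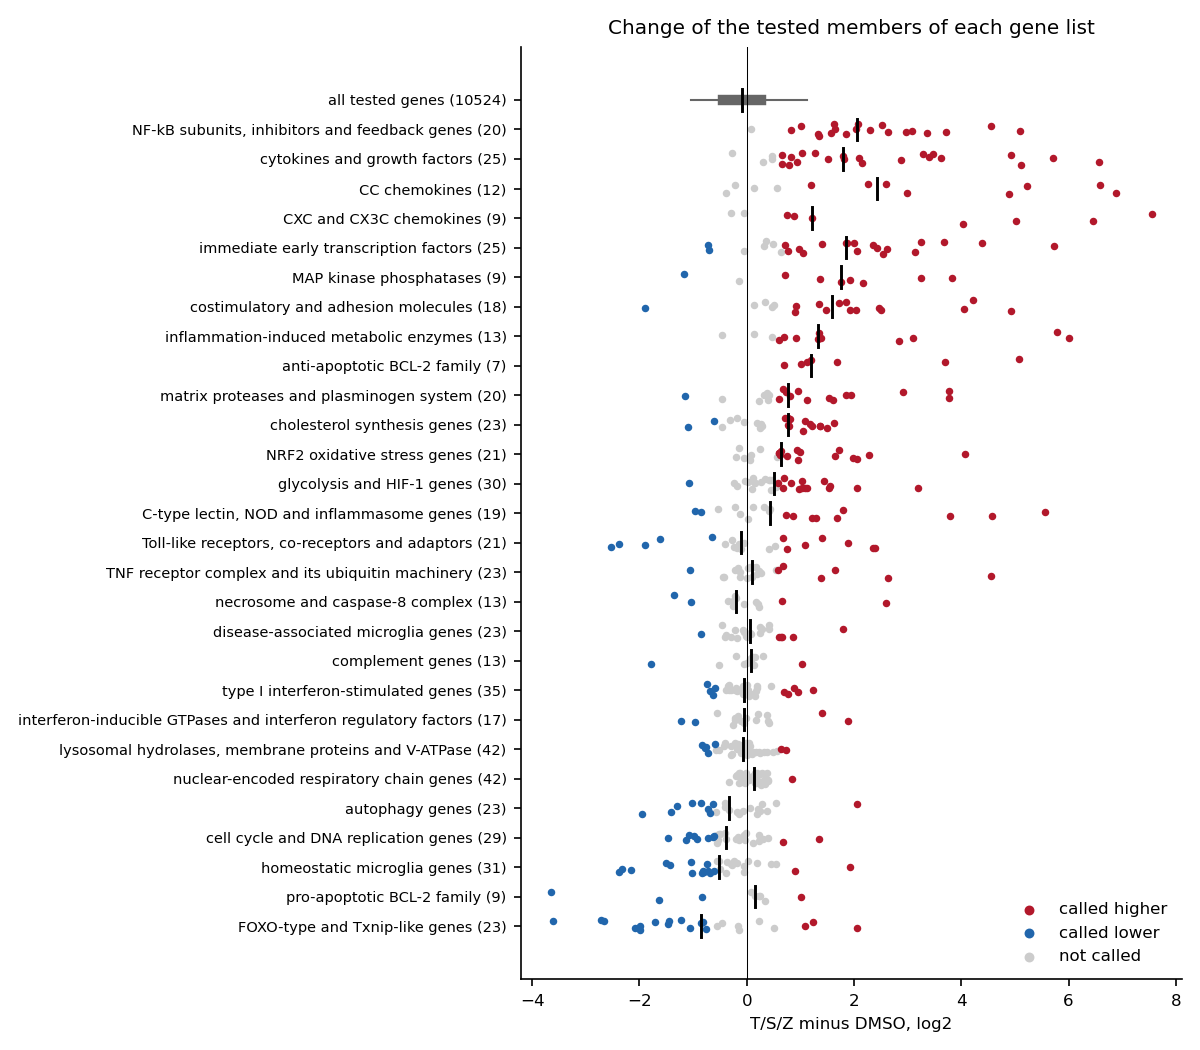
Change (T/S/Z minus DMSO, log2, horizontal axis) of every tested member of 28 gene lists, with 1 point per gene, red for called higher, blue for called lower and grey for not called. Black ticks give each list's median, the numbers in parentheses count tested members, and the bar for all tested genes spans the 5th to 95th percentile (-1.03 to 1.13, thick part from the 25th to the 75th). The medians of the NF-kB feedback genes (2.06) and the cytokines (1.79) are above 0, and those of the homeostatic (-0.51) and FOXO-type genes (-0.85) below it. The bar shows the spread of single genes and is no measure for a median.

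Among metabolic and stress genes, rises outnumbered falls, against 12.2% of all genes higher and 17.5% lower. Of 13 metabolic enzymes induced in inflamed macrophages 10 were higher and 0 lower. Sod2, the mitochondrial superoxide dismutase, rose by 3.10 (SE 0.081) and Gch1, which makes the cofactor tetrahydrobiopterin's precursor, by 2.83. Of 30 glycolysis and HIF-1 genes 14 were higher and 1 lower. The glucose transporter gene Slc2a1 had 4.44, 4.44, 4.58 and 4.33 in DMSO and 7.51, 7.56, 7.65 and 7.84 in T/S/Z (rise 3.20, SE 0.08, limma adjusted p 1.13e-07), the lactate exporter Slc16a3 rose by 2.05 and Hif1a by 1.54. Of 21 NRF2 oxidative stress genes 14 were higher and 0 lower. Slc7a11, the cystine importer, had 2.77, 2.65, 2.51 and 2.14 and 6.15, 6.39, 6.83 and 6.95 (rise 4.06, SE 0.2, limma adjusted p 1.99e-06), Txnrd1, thioredoxin reductase, rose by 2.27, and Sqstm1, the autophagy receptor p62, by 2.06. The integrated stress response and the unfolded protein response had 10 of 29 higher, a share of 34.5% called against 29.6% of all genes. Ppp1r15a, a phosphatase subunit that restores translation, rose by 2.53. Heat shock genes were higher in 4 of 13 (30.8% called), with Hspa1a at 2.26 and Hspa1b at 1.22, near-identical copies and uncertain. With 5 added before the log these were 1.27 and 0.6.

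Lipid mediator genes moved in both directions. Of all genes 12.2% were higher and 17.5% lower. Of 14 prostaglandin and leukotriene enzymes 4 were higher and 4 lower. Ptgs2, the inducible cyclooxygenase COX-2, rose from 2.63 ± 0.37 to 6.67 ± 1.1 (rise 4.05, SE 0.47, limma adjusted p 0.000138), and the phospholipase Pla2g4a, which frees the substrate, rose by 1.96. Hpgd, which inactivates prostaglandins, had 6.98, 6.98, 7.10 and 7.31 in DMSO and 4.48, 4.44, 4.38 and 4.31 in T/S/Z, a fall of 2.69 (SE 0.085, limma adjusted p 2.54e-07). The constitutive cyclooxygenase Ptgs1 fell by 0.98, under the minimum with 5 added before the log (-0.44). Of 23 cholesterol synthesis genes 13 were higher and 2 lower, with a median of 0.77. Insig1, a sterol-sensing regulator of the pathway, rose by 1.63, and the lower ones were Dhcr7, which catalyses the last step (fell by 1.09), and Mvk, the mevalonate kinase gene (fell by 0.62). The call of Mvk was lost with 5 added before the log (-0.46), after median centring (-0.52) and after quantile normalization (-0.52). Of 12 sterol efflux genes 2 were higher and 1 lower, 25% called against 29.6% of all genes. Abcg1, a cholesterol exporter, fell by 1.74 (SE 0.081, limma adjusted p 1.42e-06), and Nr1h3, the nuclear receptor LXR-alpha, rose by 1.32. Matrix proteases and plasminogen genes were higher in 13 of 20 and lower in 1 (9 higher with 5 added before the log), with the urokinase gene Plau at 3.78, its receptor Plaur at 3.76 and the collagenase Mmp13 at 2.92.

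The largest falls were smaller than the largest rises. The 15 largest were those of Bmf, Engase, Arrdc3, Rassf3, Rnf144b, Abcd2, Rassf2, Lpar5, Tifab, Sesn1, Hpgd, Rtn4rl1, Klhl24, Cnr2 and Tmem140, from -3.64 to -2.63. Engase (GRCm38 chromosome 11, 118476829 to 118489209), a cytosolic enzyme that removes N-glycans, had 4.65, 4.60, 4.56 and 4.97 in DMSO and 1.16, 1.15, 1.18 and 0.78 in T/S/Z, a fall of 3.63 (SE 0.13, limma adjusted p 4.83e-07). Arrdc3 (chromosome 13, 80883410 to 80896042), an arrestin-like adaptor, had 5.00, 4.94, 5.14 and 5.21 and 1.5, 1.47, 1.41 and 1.43, a fall of 3.62 (SE 0.077, limma adjusted p 6.02e-08). Both carry the overlap mark, as do Rassf3, Rnf144b, Sesn1, Hpgd and Tmem140. Abcd2, a peroxisomal transporter of very long chain fatty acids, fell from 4.03 ± 0.14 to 0.87 ± 0.089. Cnr2, the cannabinoid receptor CB2, fell from 2.78 ± 0.095 to 0.14 ± 0.068, close to 0, and Lpar5, a lysophosphatidic acid receptor, from 3.30 ± 0.27 to 0.56 ± 0.23. For these low genes the size depends on the constant added before the log, with falls of 1.09 for Cnr2, 1.34 for Lpar5, 1.80 for Abcd2 and 2.29 for Engase when 5 was added.

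FOXO transcription factors are held inactive by growth factor signalling. Among genes listed as FOXO targets or related to Txnip, more were lower than higher. The list was written with earlier results of these data known, so setting it against all genes is no test. Of 23 tested 14 were lower and 3 higher, with a median of -0.85, against 17.5% of all genes lower. With 5 added before the log 10 were lower (43.5% against 7.13% of all genes) and the median was -0.56. Besides Arrdc3, they were led by Sesn1, a sestrin that restrains mTORC1 (5.15, 4.94, 5.00 and 4.86 in DMSO and 2.61, 2.49, 2.12 and 1.90 in T/S/Z, a fall of 2.71, SE 0.095, limma adjusted p 4.07e-07), Klhl24 (fell by 2.66) and Trp53inp1 (fell by 2.09, and by 1.34 with 5 added). Gadd45a, a stress-induced growth arrest gene, rose by 2.05, and Arrdc4, a relative of Txnip, by 1.24. Among 23 autophagy genes 8 were lower (34.8%), with the initiating kinase Ulk1 at -1.95 (SE 0.11, limma adjusted p 2.99e-06) and Ulk2 at -1.41, and 1 was higher, Sqstm1. With 5 added before the log 4 autophagy genes were lower (17.4%). The FOXO sequence GTAAACA, on either strand, was found in 2.48% of the 8183 promoters, 3.93% of those of genes called lower and 2.19% of those called higher. In the FOXO-type list 3 of 19 held it. Of the 15 largest falls 11 had a promoter in the table, and Sesn1 and Tmem140 held matches, shown in capitals.
Sesn1 (chr10:41810324-41810623, plus strand): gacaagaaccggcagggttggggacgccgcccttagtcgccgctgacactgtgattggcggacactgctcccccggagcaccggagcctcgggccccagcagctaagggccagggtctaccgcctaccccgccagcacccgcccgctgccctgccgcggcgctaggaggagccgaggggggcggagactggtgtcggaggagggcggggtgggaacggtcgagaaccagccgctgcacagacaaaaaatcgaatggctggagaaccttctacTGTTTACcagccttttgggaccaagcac
Tmem140 (chr6:34862896-34863195, plus strand): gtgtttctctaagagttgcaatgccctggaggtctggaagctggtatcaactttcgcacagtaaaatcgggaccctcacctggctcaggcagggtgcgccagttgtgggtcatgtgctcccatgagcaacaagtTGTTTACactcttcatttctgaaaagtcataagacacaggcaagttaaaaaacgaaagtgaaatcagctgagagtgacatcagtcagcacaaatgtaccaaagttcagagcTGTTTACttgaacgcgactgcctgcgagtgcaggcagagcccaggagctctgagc
In Sesn1 the match begins 23 bases after the start. In Tmem140, a membrane protein gene that fell by 2.63, matches begin 116 and 5 bases before it.

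Zinc finger genes and genes of the cell cycle had more falls than rises, in counts that depended on the treatment of low values. Of 256 tested genes with a Zfp symbol 80 were lower (31.2%, against 17.5% of all genes) and 7 higher, with a median of -0.39. Many have low levels, and the share lower was not above that of all genes with 5 added before the log, 5.86% (15 genes) against 7.13%. Among the 48 with a mean level of at least 3 it was 14.6% against 12.6%, and after quantile normalization 18.8% against 13.9%. Zfp36l2, which destabilizes mRNA, fell by 2.36 (SE 0.1, limma adjusted p 9.1e-07), while its relative Zfp36, known as tristetraprolin, rose by 2.46 (SE 0.074, limma adjusted p 2.14e-07). Of 29 cell cycle and replication genes 8 were lower (27.6%) and 2 higher. Their share lower was 10.3% (3 genes) against 7.13% of all genes when 5 was added and 17.2% against 13.9% after quantile normalization. Of the 9 with a mean level of at least 3, 2 were higher and 2 lower. A pair of inhibitors of cyclin-dependent kinases among them moved in opposite directions, Cdkn1b falling by 1.48 and Cdkn1a rising by 1.34. Of 17 p53 target genes 5 were higher, led by the stress cytokine Gdf15 (1.76, 1.85, 1.83 and 1.73 in DMSO, 6.64, 6.67, 6.63 and 7.22 in T/S/Z, rise 5.00, SE 0.12, limma adjusted p 8.65e-08), and 4 lower, against 12.2% of all genes higher and 17.5% lower.

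Several groups had calls near or under the background of all genes (29.6%). Of 35 type I interferon-stimulated genes 5 were higher and 4 lower (25.7% called), with 1 lower after median centring. Rsad2, known as viperin, was highest, at 1.23. Of 17 interferon-inducible GTPases and interferon regulatory factors 2 were higher, Gbp5 (1.88, or 0.99 with 5 added) and Irf1 (1.39), and 2 lower, Irf2 (-1.22) and Irf8 (-0.97). Among 15 genes of MHC class I presentation 1 was called, among 42 nuclear-encoded respiratory chain genes 1, and among 42 lysosomal genes 2 higher and 5 lower. The lysosomal count depended on the scaling and was 0 higher and 13 lower, with a median of -0.37, after quantile normalization, when 13.9% of all genes were lower. None of the 76 cytosolic ribosomal protein genes was called by limma, with moderated or with ordinary variance. At an unadjusted p under 0.05 without a fold minimum 70 of them passed, and their changes were all positive (0.05 to 0.47), with a median of 0.2 that was -0.2 after quantile normalization. Of 35 ribosome biogenesis genes 8 were higher (22.9%, against 12.2% of all genes) and 1 lower (2.86%, against 17.5%). Their share called, 25.7%, was near that of all genes, but the split by direction was not. Among the 22 with a mean level of at least 3, 36.4% were higher, against 14.8% of all such genes.

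T/5z also contains TNF, and the libraries of T/S/Z were compared with it directly to see which parts of the response differed between the stimuli. Of all genes 9.83% were called, 570 higher in T/S/Z (5.42%) and 465 lower (4.42%). Immediate early genes, MAP kinase phosphatases and cytokines were higher with T/S/Z, in 17 of 25, 6 of 9 and 15 of 25 tested members, and 0, 1 and 3 members were lower. Egr2 was higher by 4.27 (SE 0.18, limma adjusted p 1.11e-05) and Dusp1 by 3.47 (SE 0.17, limma adjusted p 1.93e-05). Dusp1 had 5.35 ± 0.058 in DMSO, 5.14 ± 0.13 in T/5z and 8.61 ± 0.43 in T/S/Z. Ccl4, Il1a, Cxcl2, Ccl3 and Tnf were higher in T/S/Z than in T/5z by 3.85, 3.76, 3.75, 3.51 and 3.50. These genes were named for their rises over DMSO, in a contrast that shares the T/S/Z libraries. A high T/S/Z value therefore raises both differences. Glycolysis and HIF-1 genes were higher in 12 of 30 and lower in 1, with Slc2a1 at 1.32. Of the mitochondrially encoded genes 8 of 11 were also higher in T/S/Z than in T/5z, and their part in these counts was not tested.

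Interferon-inducible GTPases and regulatory factors lay the other way. Of 17 tested 12 were lower in T/S/Z than in T/5z and 1 was higher, Irf8 (0.90). Of the 35 type I interferon-stimulated genes 9 were lower and the other 26 were not called. Gbp5, a GTPase of antimicrobial defence, had 1.23 ± 0.25 in DMSO, 6.54 ± 0.15 in T/5z and 3.11 ± 0.086 in T/S/Z, a difference between the stimuli of -3.42 (SE 0.06, limma adjusted p 3.77e-07). Irf1 differed by -1.77 and Cd40 by -1.98. Birc2 differed between T/S/Z and T/5z by -1.5 (limma adjusted p 4e-05), and Tmem119 by -1.63, though neither was called against DMSO. For many leading genes no difference between the stimuli was called. Traf1 differed by 0.31 (SE 0.068), Ptges by 0.47 (SE 0.074), Acod1 by -0.56 (SE 0.07) and Mertk by 0.06 (SE 0.067).

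Nec-1s was added to T/S/Z in the T/S/Z/N group, and the same genes were compared between these groups. The contrast shares the T/S/Z libraries with the contrasts above, so a T/S/Z library that is high for a gene raises both differences, and the values are set side by side only. Of all genes 12.1% were called, 563 higher with Nec-1s (5.35%) and 707 lower (6.72%). Genes higher with Nec-1s were 44.3% of these calls, and 28.9% after median centring, 21.2% when 5 was added before the log and 35.4% after quantile normalization. Lower with Nec-1s were 21 of 25 immediate early genes, 19 of 25 cytokines, 7 of 9 MAP kinase phosphatases, 7 of 7 anti-apoptotic genes and 9 of 20 NF-kB genes. Plau had 3.51 ± 0.23 in DMSO, 7.29 ± 0.6 in T/S/Z and 2.97 ± 0.27 in T/S/Z/N, and Rgs1 had 4.47 ± 0.25, 7.31 ± 0.49 and 3.05 ± 0.37. Rgs1 with Nec-1s lay below its level in DMSO. Traf1, Icam1, Tlr2 and Cd40 differed little, by -0.35, -0.32, -0.33 and -0.43, none of them called. Called the other way, higher, were 1 immediate early gene and 2 NF-kB genes. Of the 23 FOXO-type genes 10 were higher with Nec-1s and 3 lower. For Tmem37 and Mertk, which fell with T/S/Z, no difference was called, with differences of -0.048 and 0.06. The 10 of 11 mitochondrially encoded genes and 5 of 8 astrocyte markers that were lower with Nec-1s stand beside these counts, and their part was not tested.

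**Figure D5:**
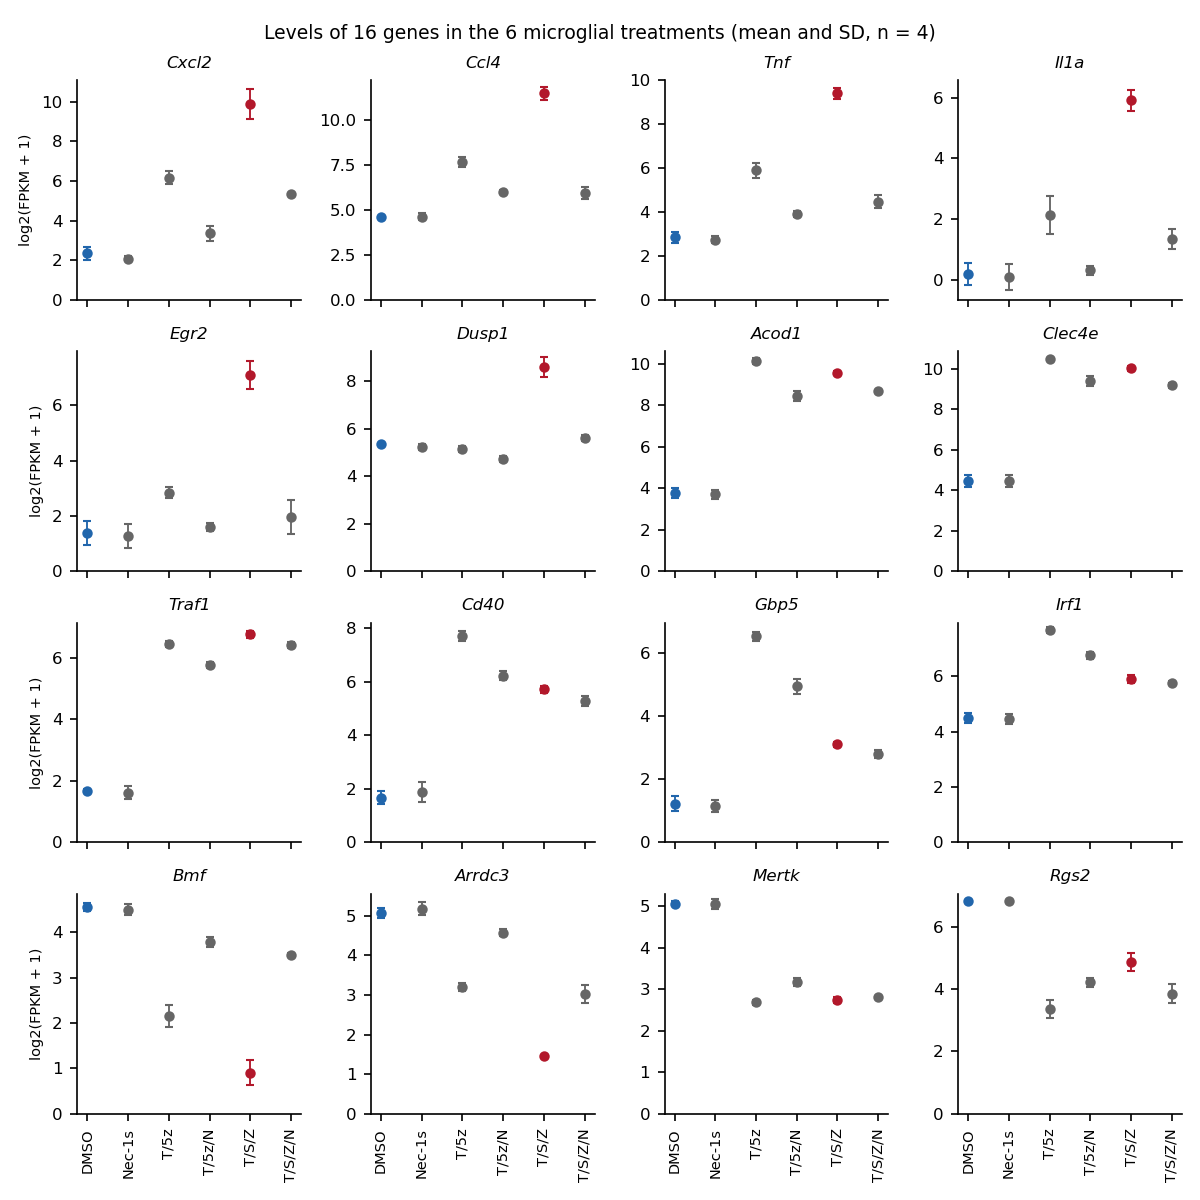
Levels (log2(FPKM + 1), mean and SD of 4 libraries) of 16 genes in the 6 microglial treatments, DMSO in blue and T/S/Z in red. The upper rows show genes that rose with T/S/Z and the bottom row genes that fell. Egr2 and Dusp1 are highest in T/S/Z, Gbp5 and Irf1 are highest in T/5z, and Mertk is lower in the 4 stimulated groups (2.69 to 3.17) than in DMSO and Nec-1s.

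Exon length and the overlap mark were not used to make the calls. The median exon length was 3004 bases for genes called higher and 3620 for those called lower, against 3157 for all tested genes. The levels themselves made the calls, and their medians are given as a description. Genes called lower had a median DMSO level of 3.21 and a T/S/Z level of 2.22, and those called higher had 3.55 and 4.86. A DMSO mean under 1 was found for 160 of the genes called higher (12.5%) and for 3 of those called lower, which the filter on low values partly sets. The overlap mark was on 48.1% of the genes called higher, 49.0% of those called lower and 49.95% of all. Genes are not independent, and these values are descriptions of the lists.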

How the data were processed

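RNA of cultured mouse microglia was sequenced after poly(A) enrichment, in 24 libraries of 6 treatments with 4 replicates each. Alignment, quantification and normalization were done by the authors in OmicSoft Array Studio, and the deposited values are log2 of FPKM plus 1. Libraries of replicate 4 share their 75th percentile (4.1441), the others lie near it. The aligner and the annotation release are not given in the sources used here. The deposited coordinates were compared with GENCODE M21 on GRCm38, and 10521 of the 10524 tested genes were matched by identifier, all of them overlapping. In replicates 1 to 3 each gene's mean over the 6 treatments equals that of replicate 4, an adjustment not described in the methods. A constant added to all 6 libraries of a replicate leaves differences within that replicate as they were, but it removes the differences between replicates from which their spread would otherwise be read. Groups and replicate numbers came from the sample labels.

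Genes with a deposited log2 value of 1 or more in at least 4 of the 24 libraries were tested and 4861 were not. Differences were fitted with limma 3.58.1 in R 4.3.3 (lmFit and eBayes with a trend on mean level, 2-sided), on the 8 libraries of the groups compared, blocked by replicate number in keeping with the study's paired test. A call required a fold change over 1.5 and a Benjamini-Hochberg adjusted p under 0.05 over all genes tested. The 1 added before the log makes fold changes of low genes smaller than they are. The scripts were tested on simulated data. The methods define replicates as cells from separate litters, and beyond that p-values measure only the spread between these samples. The deviations of same-numbered libraries from their group means correlated by -0.305, -0.314, -0.458 and -0.174 for replicates 1 to 4. With equal replicate means, such deviations sum to 0 over the treatments of a replicate. That pulls these correlations down on average over pairs of treatments, so these data cannot show the pairing. Low values of replicate 4 served to estimate its depth, and 66.4% (DMSO) and 67.9% (T/S/Z) of low values lay within 0.1 of a whole multiple. Whole reads were therefore not recovered and no count test was run.

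The members and gene lists were chosen with earlier results of these data known. Named genes were the 15 largest called rises and falls that went the same way in 4 of 4 pairs, in each list the 4 largest calls in its main direction and the 2 largest in the other, all tested genes of the TNF receptor and necrosome lists, and the microglia markers. Some of those are given by counts only or are not reported here. Promoters were taken from RefSeq on GRCm38.p6 and searched on both strands. Alternatives were 5 added before the log, median centring, quantile normalization, no replicate block, other variance estimates, other filters and fold minimums, all 24 libraries in the fit, only genes without the overlap mark, and each replicate left out. Of the 12 astrocyte libraries, whose table was normalized separately, only those of DMSO and T/S/Z were used. They gave the direction and size of the same contrast for a few genes.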

Additional observations from a re-analysis of the deposited data

Results flagged for a closer look

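A single library stood apart from the other 3 of its group in 12 of 296 groups examined (148 genes named in the report, 2 treatments each), where its gap to the nearest library, as a share of the group's range, exceeded Dixon's 95% critical value for 4 samples. Chance alone marks about 1 in 20 such groups, and the 12 found do not exceed that share. Among cytokine and receptor genes in T/S/Z, replicate 4 had the highest level of Il1a, 6.41 against 5.69 to 5.79 in the others, of the chemokine receptor gene Ccr1, 3.30 against 2.78 to 2.86, and of the stress cytokine gene Gdf15, 7.22 against 6.63 to 6.67. It was also the highest for Zfp36 (8.69 against 8.37 to 8.43) and Tmem37 (3.34 against 3.09 to 3.11), and the lowest for Engase (0.78 against 1.15 to 1.18). In DMSO, replicate 4 was the highest for Igf1 (8.56 against 8.38 to 8.41) and Rbck1 (5.15 against 5.02 to 5.03). Replicate 3 of T/S/Z was the highest for Bcl2l11 (4.91 against 4.48 to 4.55) and the lowest for Gpr84 (9.60 against 9.98 to 10.02) and Zfp36l2 (4.03 against 4.26 to 4.29). Replicate 1 of DMSO was the lowest for Cd14, 9.77 against 9.99 to 10.00.

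For 3 named genes every microglial pair moved one way and each of the 3 astrocyte pairs the other under T/S/Z against DMSO, and the difference between the cell types was not tested. Igf1, a growth factor, differed by 0.66 in microglia and by -0.985 ± 0.186 (SD of 3 pairs) in astrocytes. Irf2, an interferon regulatory factor, differed by -1.22 in microglia and by 0.671 ± 0.185 in astrocytes. Tmem140 differed by -2.63 in microglia and by 0.86 ± 0.235 in astrocytes. The tables of the cell types were normalized separately.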

How the results depend on the processing

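For T/S/Z against DMSO (1280 higher, 1838 lower), there were 883 and 750 with 5 added before the log, 922 and 789 among the 6243 genes whose mean level was at least 3, 664 and 937 among the 5267 genes without the overlap mark, 628 and 574 with a fold minimum of 2, and 3184 and 4322 without one. Centring each library on its median gave 1564 and 1406 and quantile normalization 1340 and 1468, while the median change of all genes moved from -0.085 to 0.013 and -0.063. Ordinary variance, no trend, all 24 libraries, no filter and unadjusted p gave 1230 to 1336 higher and 1798 to 1863 lower. Leaving out each replicate gave 1177 to 1329 higher and 1753 to 1888 lower. Of the calls shared between the reported and any of these settings, 0 had the opposite direction.

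T/S/Z against T/5z (570 higher, 465 lower) gave 372 and 239 with 5 added, 243 and 156 with a fold minimum of 2, and 520 to 609 and 463 to 495 without each replicate. T/S/Z/N against T/S/Z (563 higher, 707 lower) gave 109 and 405 with 5 added, 351 and 862 after median centring, 56 and 279 with a fold minimum of 2, and 526 to 619 and 690 to 762 without each replicate. Without the replicate block the counts were 1282 and 1837 for T/S/Z against DMSO (3117 calls shared), 574 and 469 against T/5z, and 561 and 706 for T/S/Z/N, and 0 of the calls of named genes were lost. Since the replicate means had been made equal before deposit, this fit could hardly differ and says nothing of stability. In the pairing check 0 of 4 replicates matched its own number best.

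Medians of several lists changed sign with the setting. Marker lists of other cells with 5 or fewer tested genes are left out here. The median became positive for cytokine and chemokine receptors after median centring (0.0469) and without overlap-marked genes (0.1), for prostaglandin and leukotriene enzymes with a mean of at least 3 (0.102) and without overlap-marked genes (0.489), for interferon-inducible GTPases and regulatory factors after median centring (0.0498) and quantile normalization (0.0842), and for lysosomal (0.0236) and interferon-stimulated genes (0.0474) after median centring. It became negative after quantile normalization for pro-apoptotic BCL-2 genes (-0.01), disease-associated microglia genes (-0.23), complement (-0.318), sterol efflux (-0.0395), MHC class I (-0.241), the respiratory chain (-0.161), p53 targets (-0.076) and ribosomal proteins (-0.2). It was also negative for pro-apoptotic genes without overlap-marked genes (-1.23) and for astrocyte markers with a mean of at least 3 (-0.864). The median of microglia markers, -0.046, became positive after median centring (0.052), with a mean of at least 3 (0.0318) and without replicate 3 (0.0368). Of the 132 called genes named, 16 lost the call under an alternative other than the larger fold minimum, 9 with 5 added and 9 after quantile normalization, and their values stand in the report. The causes were not tested. Depth is unknown for replicates 1 to 3, and levels at or below 0 there cannot be told from absence.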
